A study of Danio rerio with 8 samples.

Results

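The gamma crystallin genes of the zebrafish lens were measured in whole larvae with a knockdown of LIS1 and in control larvae. They were taken as every gene whose symbol starts with crygm, crygn or crygs, and were found by matching the transcript accession of each array probe to the RefSeq genes of assembly GRCz12tu, which were used only for names and gene order. RefSeq lists 41 such genes, and 36 of them were matched by 47 of the 43603 probes on the array. The other 5 genes, crygm4, crygm2e, crygm2d1, crygm2d5 and crygm2d19, had no matched probe and were not analysed here. Of the 36 genes, 33 could be tested, through 42 probes, out of 23402 genes tested in all. Only 12142 of those 23402 carried a gene symbol. The rest were accessions without a match, each counted as a gene of its own, so several may belong to 1 gene. Shares of all genes given below include them. A probe was tested if, in 1 group or both, the scanner software marked it as well above background on every one of the 4 arrays. In gene order, 34 of the 41 genes form a single run on the same chromosome with at most 1 other protein-coding gene between neighbours, and 21 genes of that run are the crygm2d copies. Each probe carries the accession of 1 copy. The files hold no probe sequence, so whether a probe also binds the near-identical copies was not tested, and the value of a crygm2d probe may belong to several of them.

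Crystallins are the soluble proteins that fill the fibre cells of the lens and give it its transparency and refractive power. Gamma crystallins are small monomers built from paired Greek key domains. The gamma M crystallins (crygm) are the methionine-rich forms of fish, known for packing tightly in the hard, dehydrated fish lens. The gamma N crystallins (crygn) combine features of beta and gamma crystallins, and the gamma S crystallins (crygs) are the branch best conserved between fish and mammals. As lens cells become fibres, transcription of crystallin genes rises to very high levels before the fibres lose their nuclei.

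There were 2 groups, each of 4 pools of 10 whole larvae of the WIK background, collected at 4 days post fertilization. Each pool was hybridised to 1 array of a 1-colour design. The first group were LIS1 morphants, in which LIS1, a regulator of the motor protein dynein, had been knocked down transiently. They had been chosen because they showed a slight phenotype and seizures, so they do not stand for all injected larvae. The second group were controls from the same pools of eggs, labelled as wild type, and the labels do not say whether they were injected. Because RNA came from whole larvae, fewer lens cells and less crystallin RNA per cell cannot be told apart.

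Levels below are log2 processed signals minus the array's own 75th percentile, so a level of 1 lies 1 log2 unit above that percentile, and changes are morphant minus control on this log2 scale. Errors of changes are moderated standard errors of limma, and adjusted p-values are from limma with Benjamini-Hochberg adjustment over all genes or all probes tested, with a threshold of 0.05. That percentile itself lay at a processed signal of 1599 ± 153 (SD, n = 4) in LIS1 morphants and 1237 ± 178 (SD, n = 4) in controls. A two-sided exact permutation test, whose smallest possible p is 0.0286, gave p = 0.0571. This is a shift of 0.38 on the log2 scale, which the scaling subtracts from every morphant change. The spike-in controls, RNAs meant to be added in fixed amounts, shifted the other way, with a median signal of 1960 ± 173 (SD, n = 4) in morphants and 2503 ± 287 (SD, n = 4) in controls, with p = 0.0571 by the same exact permutation test. Between 83.8% and 88.8% of spots per array were well above background and none was saturated. Transcripts of the knocked-down gene did not separate the groups: pafah1b1a averaged 2.57 ± 0.24 in morphants and 2.499 ± 0.32 in controls (SD, n = 4 each, limma adjusted p = 0.794), and pafah1b1b 1.14 ± 0.39 in morphants and 1.17 ± 0.54 in controls (adjusted p = 0.944). A morpholino can act on translation without lowering RNA, and the labels do not give its target, so these levels check nothing.

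Of the gamma crystallins, crygm5, crygmxl1 and crygm1 fell most in LIS1 morphants, by more than 2 log2 units. Of the 33 tested genes, 14 fell past the threshold and 19 did not pass. The 14 are 42.4% of those tested, against 21.9% of all genes tested. None rose, against 16.4% of all genes. All 33 changes were below 0, against 54.3% of all genes, and their median was -0.44 against -0.06 over all genes. The 33 are not independent observations. Very bright probes, defined below, stand for 16 of them, and 13 of these 16 are near-identical crygm2d copies. Such probes read nearly the same in both groups before scaling, as given below. With no filter on dim probes, 36 members were tested and 10 fell, against 18.8% of all genes. In that fit 33 members had a change below 0 and 3 had one above 0. The direction of the median depends on the scaling. With arrays scaled to the spike-ins the members' median was 0.30, with 20 of 33 changes above 0, against a median of 0.68 over all genes. Without scaling the members' median was -0.06, with 29 changes below 0 and 4 above, against a median of 0.32 over all genes. Relative to the median of all genes it was -0.38 in both fits and in the main one, because such scalings shift all genes nearly alike. In 12 genes every morphant pool lay below every control pool, which held for 21.4% of all genes. In 24 genes the morphant pool was the lower on all 4 slides, each of which carried 1 pool of either group, which held for 34.5% of all genes. The 14 genes that fell were all of the gamma M branch, in which 14 of 28 tested genes passed. Only 2 gamma N and 3 gamma S genes were tested, and the probes of the gamma N gene crygn2 other than its brightest also fell. With slide, scan and replicate number as a block, 16 genes fell, against 25.4% of all genes. Of the 14 genes, 8 passed with any single pool left out (crygm5, crygmxl1, crygm1, crygm2d8, crygm2d6, crygm2d11, crygm2d13 and crygm2f) and 6 did not. The number that fell was 8 without morphant pool 4 (19.2% of all genes), without control pool 1 (21.7%) or without control pool 2 (16.3%). It was 9 without morphant pool 2 (18.9%) or without control pool 4 (19.8%), and 18 without control pool 3 (18.7%).

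**Figure D1:**
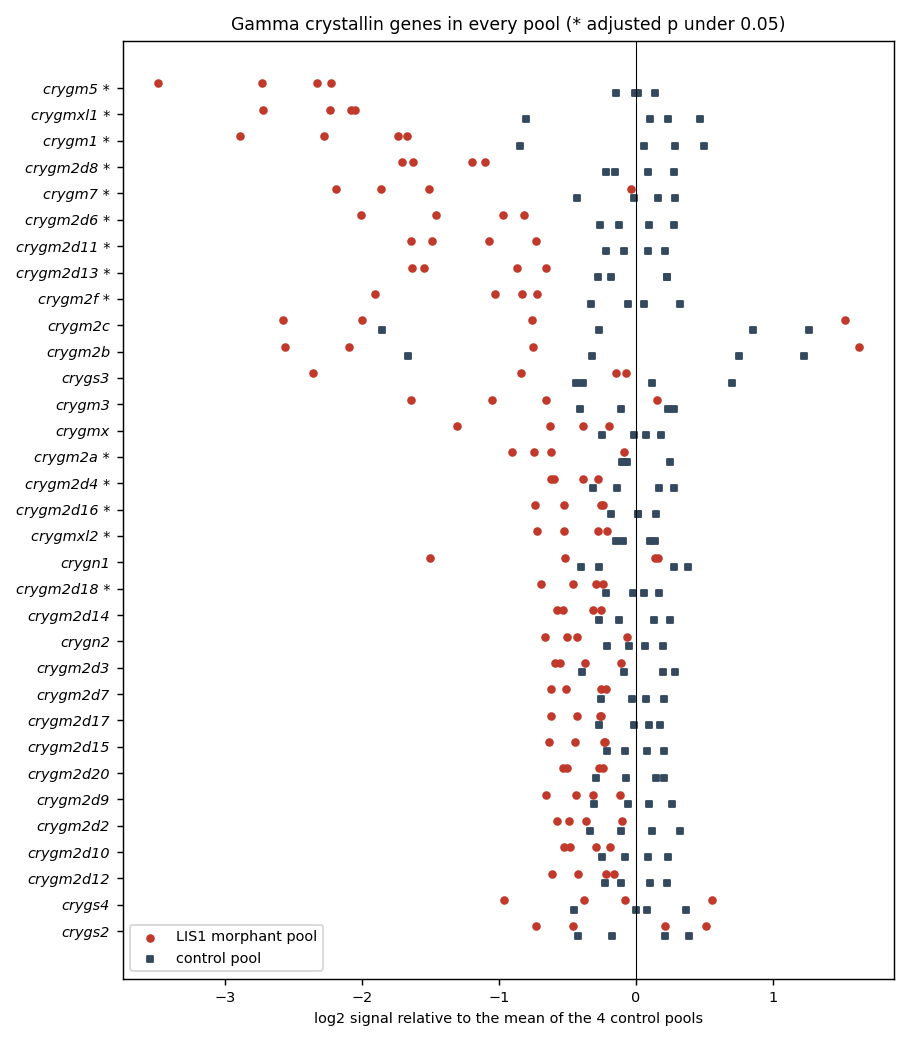
Level of each of the 33 tested gamma crystallin genes in every pool. The horizontal axis is the log2 signal relative to the mean of the 4 control pools, circles are LIS1 morphant pools, squares are control pools, and an asterisk marks an adjusted p under 0.05. The morphant pools of crygm5, crygmxl1 and crygm1 lie well to the left of all control pools, whereas those of most crygm2d genes lie within 1 log2 unit of the controls.

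Among the gamma M genes outside the crygm2 group, crygm5 had the largest change of the 33. Its brighter probe read -0.39, -0.89, -0.49 and -1.65 in the 4 morphant pools, against 1.98, 1.83, 1.70 and 1.85 in the 4 control pools. The groups were far apart, the controls agreed closely and morphant pool 4 was the lowest. The change was -2.70 ± 0.26 (SE, adjusted p = 0.000179), a level 6.48-fold lower. The dimmer probe of crygm5 gave levels of -4.15, -3.90, -3.39 and -5.40 in morphants, against -0.77, -0.32, -0.50 and -0.36 in controls. Its fall was larger, at -3.72 (adjusted p = 0.000212) or 13.2-fold.

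The gene crygm1 encodes another gamma M crystallin and was likewise read by a pair of probes. The brighter one read -0.45, 0.15, 0.09 and -1.07 in morphant pools, against 1.88, 2.32, 2.11 and 0.98 in control pools. The groups did not overlap, and the 4th pool was the lowest of its group on both sides. The change was -2.14 ± 0.35 (SE, adjusted p = 0.00219), a level 4.42-fold lower. The dimmer probe of crygm1 fell by 3.38 on the log2 scale (adjusted p = 0.00538), 10.4-fold, with morphant levels of -2.24, -1.66, -1.45 and -4.38 against control levels of 1.01, 1.64, 1.55 and -0.41. As with crygm5, both probes agreed in direction and the dimmer probe showed the larger fold.

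The MX genes, named crygmx, crygmxl1 and crygmxl2, differed among themselves in how far they moved. For crygmxl1 the levels were -1.69, -1.72, -1.87 and -2.36 in morphants, against 0.83, 0.46, 0.59 and -0.44 in controls. Its groups were separate and its change was -2.27 ± 0.28 (SE, adjusted p = 0.000563), a level 4.83-fold lower. For crygmx the levels were 3.54, 3.30, 3.73 and 2.62 in morphants, against 4.11, 4.00, 3.91 and 3.68 in controls. Only morphant pool 3 reached the control range, but the change of -0.63 ± 0.23 did not pass (adjusted p = 0.0635). It passed with the slide block (adjusted p = 0.0279) and without morphant pool 3 (adjusted p = 0.0362). For crygmxl2, read by a very bright probe, the levels were 6.27, 5.96, 6.20 and 5.76 in morphants, against 6.58, 6.62, 6.38 and 6.33 in controls. These groups lay close together without overlapping, and the change was -0.43 ± 0.15 (SE, adjusted p = 0.0456). That call held in 2 of the 8 fits that left out a pool.

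Of the other gamma M genes, crygm7 was near the limit of detection. Its brighter probe read -6.17, -4.69, -6.52 and -6.84 in morphants, of which 3 of 4 arrays were above background, against -4.37, -4.49, -5.09 and -4.67 in controls. Morphant pool 2 lay inside the control range. The change was -1.40 ± 0.43 (SE, adjusted p = 0.0311), and the call held in 2 of the 8 fits without a pool. The other probe of crygm7 fell by 1.62 (adjusted p = 0.00519), with 2 of 4 morphant arrays above background. Both probes were tested only because they were above background on all 4 control arrays, so the filter favours a fall here. With probes required to be above background on all 8 arrays, crygm7 was not tested. In that fit 13 of 32 members fell, against 21.7% of all genes. For crygm3 the levels were -1.07, -0.67, 0.13 and -1.66 in morphants, against -0.42, 0.22, 0.26 and -0.13 in controls. The groups overlapped through morphant pool 3. Its change of -0.80 ± 0.35 did not pass (adjusted p = 0.106), but did with the slide block (adjusted p = 0.0408) and without morphant pool 3 (adjusted p = 0.0173).

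The crygm2 genes other than the crygm2d copies behaved in 3 ways. The probe of crygm2f read 1.68, 1.48, 1.80 and 0.61 in morphants, against 2.83, 2.57, 2.46 and 2.19 in controls. The groups were separate, and the change was -1.12 ± 0.27 (SE, adjusted p = 0.0115). The very bright probe of crygm2a read 6.41, 6.29, 6.95 and 6.13 in morphants, against 6.95, 7.28, 6.97 and 6.93 in controls. Morphant pool 3 stood at control level. The change was -0.59 ± 0.19 (SE, adjusted p = 0.036), and it held in 1 of the 8 fits without a pool, the fit without morphant pool 3. The dim probe of crygm2a had a change of -0.65 that did not pass (adjusted p = 0.22).

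The pair crygm2b and crygm2c varied far more between pools than between groups. For crygm2b the levels were -0.19, 1.62, 4.01 and 0.28 in morphants, against 0.71, 3.13, 3.60 and 2.05 in controls. For crygm2c they were 0.42, 2.25, 4.53 and 1.0 in morphants, against 1.15, 3.86, 4.27 and 2.74 in controls. The 8 pools stood in the same order for both genes, with morphant pool 1 lowest and morphant pool 3 highest. Neither change passed, at -0.94 ± 0.96 for crygm2b (adjusted p = 0.464) and -0.95 ± 0.96 for crygm2c (adjusted p = 0.463). The 95% intervals, -3.12 to 1.24 and -3.15 to 1.24, allow both a large fall and a rise, in a fit without the slide block. Within both groups the pool numbered 1 was the lowest and the pool numbered 3 the highest, and pools of the same number shared a slide. By slide, the differences were -0.90, -1.50, 0.41 and -1.78 for crygm2b. For crygm2c they were -0.72, -1.61, 0.26 and -1.74. The 2 probes correlated at 0.998 over the 8 arrays, and whether they read the same RNA was not tested.

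Of the 21 annotated crygm2d copies, 18 were on the array, 17 were tested and 7 fell. They split by the brightness of the probe. Brightness was used to choose the probe that stands for a gene, and not to rank genes. How far it reflects the probe or the RNA amount was not tested. The 4 copies with a probe of moderate signal all fell. For crygm2d8 the levels were 4.89, 4.36, 4.79 and 4.28 in morphants, against 6.27, 6.08, 5.77 and 5.83 in controls. The change of crygm2d8 was -1.41 ± 0.18 (SE, adjusted p = 0.000719), 2.65-fold lower, and the groups were well apart. For crygm2d6 the levels were -0.77, -1.81, -0.61 and -1.26 in morphants, against 0.48, 0.30, 0.08 and -0.06 in controls, a change of -1.31 ± 0.26 (adjusted p = 0.00524).

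The other pair with moderate signal gave the same picture of groups that did not overlap. For crygm2d11 the levels were 0.31, -0.11, 0.65 and -0.26 in morphants, against 1.47, 1.59, 1.30 and 1.16 in controls, a change of -1.23 ± 0.21 (adjusted p = 0.00253). For crygm2d13 the levels were 3.23, 2.56, 3.45 and 2.47 in morphants, against 4.33, 4.33, 3.92 and 3.83 in controls, a change of -1.18 ± 0.25 (adjusted p = 0.00671). In both genes morphant pools 2 and 4 were the lower ones.

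The 13 crygm2d copies read by very bright probes had small changes of nearly equal size, from -0.47 to -0.35. The levels of crygm2d4 were 7.31, 6.96, 7.19 and 6.98 in morphants, against 7.86, 7.75, 7.27 and 7.45 in controls, and its change was the largest of these, at -0.47 ± 0.16 (adjusted p = 0.0485). Also past the threshold were crygm2d16, at -0.44 ± 0.15 (adjusted p = 0.0425), and crygm2d18, at -0.42 ± 0.14 (adjusted p = 0.0449). These 3 calls held in 1, 3 and 1 of the 8 fits without a pool. The call of crygm2d18 was also lost with the slide block (adjusted p = 0.0539). The other 10, crygm2d2, crygm2d3, crygm2d7, crygm2d9, crygm2d10, crygm2d12, crygm2d14, crygm2d15, crygm2d17 and crygm2d20, did not pass, with adjusted p between 0.0547 and 0.113. In 13 of the 16 genes with a very bright probe the lowest pool was morphant pool 2, and in 14 of them the highest was control pool 1. Morphant pool 2 also had the highest 75th percentile of the 8 arrays, at a signal of 1789, and control pool 1 the lowest, at 1084. The scaling subtracts that percentile, and how far this sets the order of the pools was not tested. Among the 17 genes without a very bright probe the lowest was morphant pool 4 in 14.

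Very bright here means a geometric mean processed signal above 100000 over the 8 arrays, a boundary drawn after the values had been seen. It takes in 19 of the 42 probes, which stand for 16 of the 33 genes. Just outside it lay crygm2d8, with a mean signal of 54495 and a change of -1.41, and just inside it crygmxl2, with a mean signal of 107498 and a change of -0.43. The very bright probes had a median change of -0.41, in a range of -0.59 to -0.35, and 8 of them passed. The 23 others had a median change of -1.23 and 14 of them passed. In all, 22 of 42 probes fell, against 21.1% of all probes tested, and none rose, against 17.4%. The groups did not overlap at 20 of the 42 probes, 13 of them not very bright, which held for 20.7% of all probes. With the slide block 23 probes fell, against 24.3% of all probes.

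Before any scaling between arrays, the very bright probes read nearly the same in both groups. For crygm2d10 the processed signal was 371012, 360972, 352086 and 342622 in morphants, against 369310, 356005, 363220 and 334186 in controls. The unscaled change of crygm2d10 was 0.00 on the log2 scale. Over the 19 very bright probes the unscaled changes ran from -0.21 to 0.02, with a median of -0.04, so that the scaled change of most of these probes lay close in size to the 0.38 shift of the 75th percentile. The 416 very bright probes of other genes had a median change of -0.24 after scaling and 0.14 before, with 9.62% called lower and 1.68% higher. By contrast, crygm5 read 1115, 963, 1065 and 527 in morphants before scaling, against 4276, 4110, 4824 and 4414 in controls. No member spot reached saturation: the highest member signal was 419467, below saturation values of 617301 to 622290. All very bright member probes, and crygm2d8, were read from the scan at lower gain on all 8 arrays. Whether the very bright probes still follow RNA amount in proportion was not tested.

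**Figure D2:**
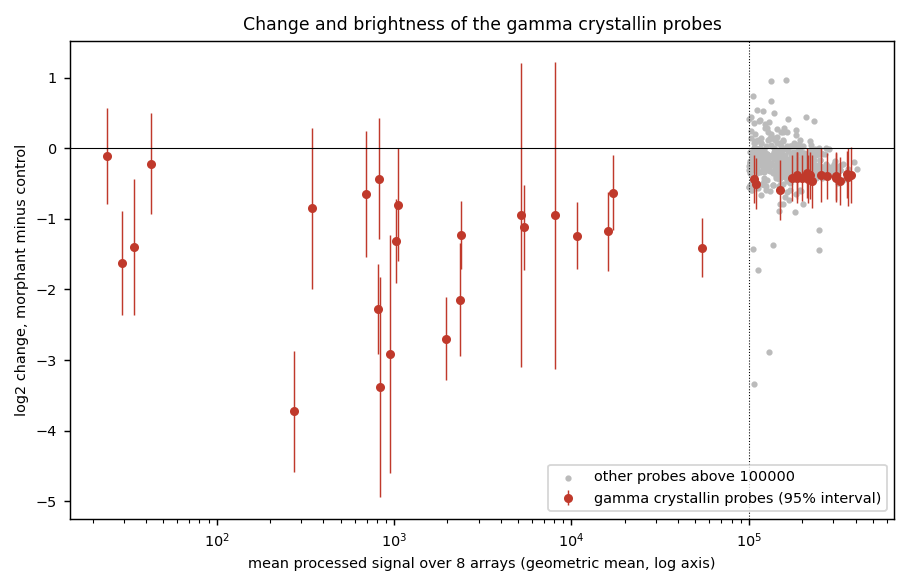
Log2 change, morphant minus control, of the 42 tested gamma crystallin probes (red, bars are 95% intervals) against their geometric mean processed signal over 8 arrays on a log axis. Grey points are the 416 other probes to the right of the dotted line at 100000. Gamma crystallin probes left of the line spread down to -3.72, and those right of it lie between -0.59 and -0.35.

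Genes read by both a very bright and a dimmer probe did not all show this. In crygm2a the changes of both probes were close, at -0.59 for the very bright one and -0.65 for the dim one, and crygn2 is described with the gamma N genes. For crygm2d15 the dimmer probe read 2.66, 1.91, 2.60 and 2.11 in morphants, against 3.78, 3.75, 3.30 and 3.39 in controls. Its change was -1.24 (adjusted p = 0.0022), whereas the very bright probe of crygm2d15 had a change of -0.38 (adjusted p = 0.0666 over all probes). The 2 very bright probes of crygm2d18 both had a change of -0.42. Those of crygm2d3 were at -0.47 (adjusted p = 0.0365) and -0.41 (adjusted p = 0.11). No pair of tested probes of a gene had changes of opposite sign.

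Of the gamma N genes, crygn2 was read by 3 probes that agreed in sign and not in size. The brightest read 7.21, 6.85, 6.78 and 6.61 in morphants, against 7.48, 7.34, 7.07 and 7.23 in controls. Morphant pool 1 lay inside the control range, and the change of crygn2 was -0.41 ± 0.16 (adjusted p = 0.0666), which passed with the slide block (adjusted p = 0.0295) and without morphant pool 1 (adjusted p = 0.028). The dim probe of crygn2 read -4.00, -1.49, 0.08 and -2.65 in morphants, against 0.34, 1.2, 1.19 and 0.85 in controls. Its groups did not overlap, its morphant pools were widely spread, and its change was -2.91 (adjusted p = 0.0147). The remaining probe had a change of -0.50 (adjusted p = 0.0352). For crygn1 the levels were -1.08, -0.42, -0.39 and -2.06 in morphants, against -0.96, -0.28, -0.18 and -0.83 in controls. Morphant pools 2 and 3 lay inside the control range, and the change of -0.43 ± 0.38 did not pass (adjusted p = 0.396).

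**Figure D3:**
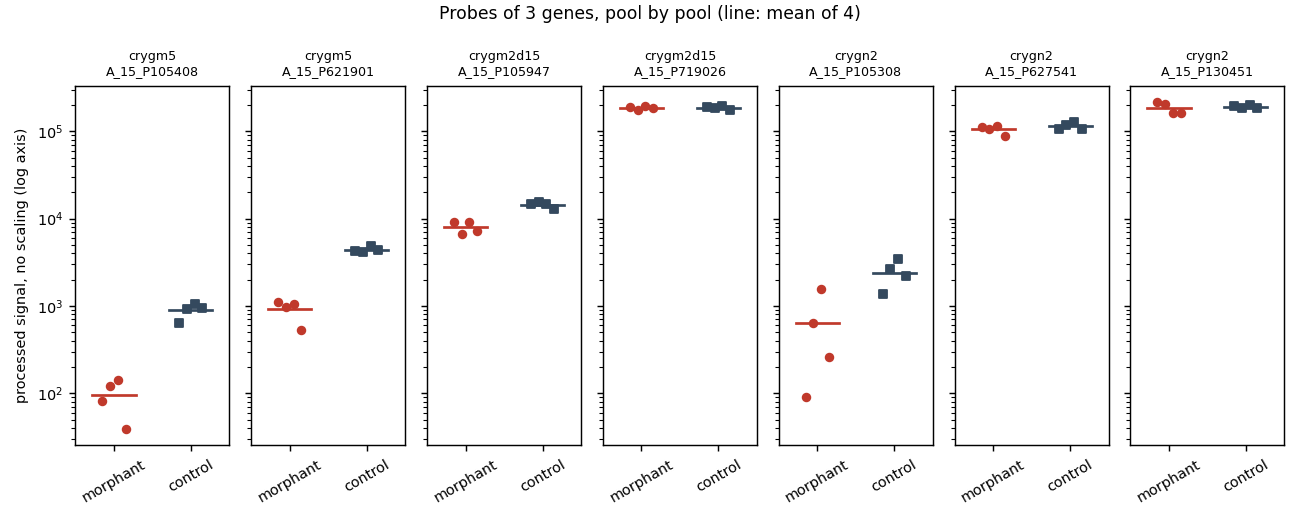
Processed signal without scaling, on a log axis, of all probes of crygm5, crygm2d15 and crygn2 in LIS1 morphant pools (circles) and control pools (squares), with a line at the mean of 4. Both probes of crygm5 and the dimmer probes of crygm2d15 and crygn2 are lower in morphants, and the very bright probes of the last 2 genes sit at like signals in both groups.

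The gamma S genes did not pass the test. For crygs3 the levels were -2.42, -1.73, -1.66 and -3.94 in morphants, against -1.97, -0.88, -1.47 and -2.03 in controls. The groups overlapped, with morphant pool 4 lowest, and the change was -0.85 ± 0.50 (adjusted p = 0.212). The 2 others were dim. The change of crygs4 was -0.22 ± 0.31 (adjusted p = 0.614), and that of crygs2 was -0.12 ± 0.30 (adjusted p = 0.788). Their 95% intervals of -0.93 to 0.50 and -0.80 to 0.57 reach below the changes of the crygm2d genes with very bright probes, so a fall of that size cannot be told from none.

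The 3 untested genes were at the limit of detection. Both probes of crygm6 were above background on none of the 4 control arrays, and on 0 and 1 of the 4 morphant arrays. The probes of crygm2d21 and crygs1 were each above background on 2 morphant arrays and on no control array. For crygs1 the levels were -7.11, -5.98, -6.45 and -3.14 in morphants, against -6.98, -7.47, -7.55 and -6.96 in controls, so that only morphant pool 4 stood well above the rest. A second probe of crygs3 was also left untested, with 3 morphant and 2 control arrays above background.

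The calls of genes with very bright probes changed with how arrays were made comparable. Those of crygm5, crygmxl1, crygm1 and crygm2d8, which fell most, did not. Under the main scaling, calls of genes with very bright probes were also lost in most fits that left out a pool. Scaled to the array median, 9 genes fell, against 19.1% of all genes. The count was 9 with quantile normalization (19.9% of all genes), 9 with normexp background correction and quantile normalization (19%), 9 in the deposited value table (19.7%) and 8 with normexp and the 75th percentile (5.64%). With signals left unscaled, an alternative chosen after seeing the data, 8 genes fell, against 8.97% of all genes, and the median was -0.06. Scaled to the spike-ins, 4 fell, against 4.57% of all genes, the median was 0.30 and 20 members had a change above 0. None of these 20 passed as higher in limma, also at an unadjusted p under 0.05, whereas 12580 of all 23402 genes passed as higher. Those scalings moved the median of all genes to 0.32 and 0.68 and the lower share of all calls to 23.0% and 7.83%, against 57.1% in the main scaling. The falls of crygm5, crygmxl1, crygm1 and crygm2d8 passed in all 20 alternatives tried. Those of crygm2d6, crygm2d11, crygm2d13 and crygm2f passed in all but the spike-in scaling. The call of crygm7, next in size at -1.40, held in 10 of the 19 alternatives that tested it. No member was called higher in any alternative.

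**Figure D4:**
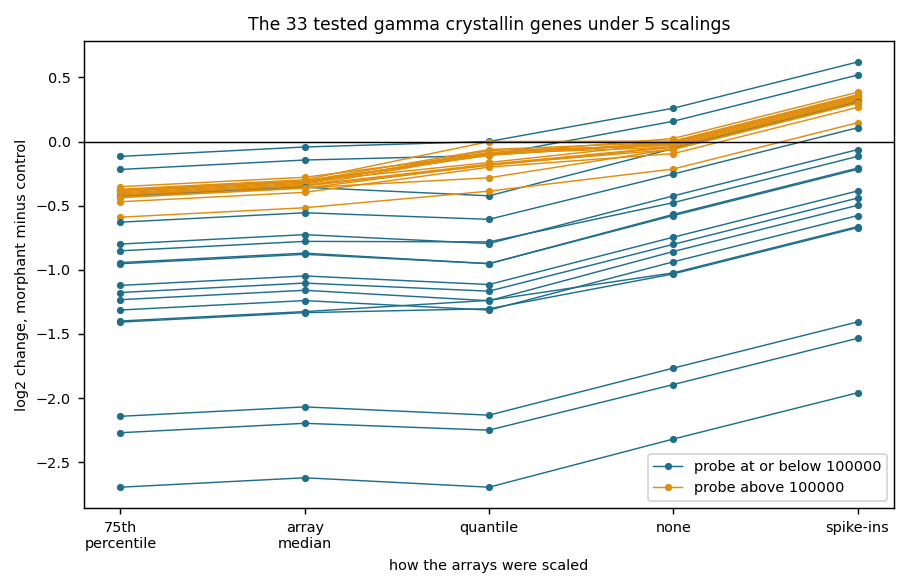
Log2 change, morphant minus control, of the 33 tested gamma crystallin genes under 5 ways of scaling the arrays. Each line is a gene, orange where its probe has a mean signal above 100000 and blue otherwise. The orange lines move from below 0 with the 75th percentile to about 0 without scaling and above 0 with the spike-ins, while the lowest blue lines stay below 0 throughout.

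In the other lists of lens genes, more genes fell than rose with the 75th percentile scaling. With the spike-ins no gene fell and 3, 3 and 6 rose among alpha and beta crystallins, fibre genes and transcription factors. In that fit 1069 of all 23402 genes fell and 12580 rose. Without scaling no gene of these lists fell and 1, 2 and 3 rose, against 2100 of all genes lower and 7027 higher. The lists of lens, eye and body genes were compiled with earlier results of these data known. They are described by counts, medians and mean levels, and no list was tested as a whole. Genes named from them are at most 2 per direction that passed, so their adjusted p-values are not independent support. In the main scaling, used below unless another is named, 21.9% of all genes were lower and 16.4% higher. Of 14 tested alpha and beta crystallins (19 listed), the other soluble lens proteins, 5 fell and 1 rose, with a median of -0.42. The mean level of that list was 2.06 to 2.65 in morphant pools and 2.67 to 2.92 in control pools. In this list crybb2 fell by 0.84 (adjusted p = 0.0217), and crybb1l2 fell by 0.58 (adjusted p = 0.0333), a change that the spike-in scaling turned to 0.16. The probe of crybb2 is dim, and its change was -0.10 with the spike-ins and -0.19 with normexp and the 75th percentile, neither of which passed (adjusted p = 0.799 and 0.905). The 1 that rose was cryba1a, at 0.64 (adjusted p = 0.0118), whose other probe had a change of -0.60. Of 17 tested genes for fibre membranes, filaments and enzymes (22 listed), 7 fell and none rose, with a median of -0.47. They include nrcama, a cell adhesion gene, with a change of -0.98 (adjusted p = 0.00931), and mipb, a lens aquaporin, with -0.71 (adjusted p = 0.0189), or 0.02 with the spike-ins. The probe of nrcama is dim, with mean levels of -4.31 in morphants and -3.33 in controls. Its call was lost with the spike-ins, at -0.25 (adjusted p = 0.462), and with normexp and the 75th percentile, at -0.41 (adjusted p = 0.585). Of 17 tested lens transcription factors (20 listed), 6 fell and 2 rose, with a median of -0.21. There prox1a, needed for fibre differentiation, had a change of -0.67 (adjusted p = 0.00649; 0.07 with the spike-ins) and pax6b, a regulator of eye formation, one of -0.63 (adjusted p = 0.0401; 0.11 with the spike-ins; adjusted p = 0.0844 with the slide block). The genes mafbb and mafba rose by 0.69 (adjusted p = 0.0354) and 0.38 (adjusted p = 0.0293), the second with another probe at -0.02. RNA came from whole larvae, so how much of the signal of nrcama or of these transcription factors came from the lens was not tested.

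Photoreceptor genes were lower together with the gamma crystallins, and their part in the result was not tested. Of 33 tested photoreceptor genes (40 listed), 18 fell and none rose, with all 33 changes below 0 and a median of -0.74. The mean level of that list was 1.21 to 2.17 in morphant pools and 2.41 to 2.71 in control pools. The largest falls in it were those of guca1b, a regulator of guanylate cyclase, at -1.80 (adjusted p = 0.0116), and nrl, a photoreceptor transcription factor, at -1.68 (adjusted p = 0.00109). Of 14 tested inner retina genes (17 listed), 5 fell and 1 rose, with 7 changes below 0, a median of -0.32 and list means of -1.47 to -0.86 in morphants and -0.95 to -0.62 in controls. Examples are pou4f2 of ganglion cells at -0.95 (adjusted p = 0.00495) and grm6b, a glutamate receptor, at 0.54 (adjusted p = 0.0412). Of 11 tested genes of the pigment epithelium and visual cycle (15 listed), 4 fell and 2 rose, with 6 changes below 0, a median of -0.36 and list means of 0.97 to 1.35 in morphants and 1.47 to 2.13 in controls. In that list rgra, a retinal opsin, had a change of -2.67 (adjusted p = 0.00213). The change of tyr, the enzyme that starts melanin synthesis, was -2.20 (adjusted p = 0.0191, above background on 1 of 4 morphant arrays). Its probe was tested only because it was above background on all 4 control arrays, so the filter favours a fall here. The pigment granule genes pmelb and pmela had changes of 0.66 (adjusted p = 0.0403) and 0.63 (adjusted p = 0.00713). With probes required to be above background on all 8 arrays, 3 of 10 genes of this list fell, against 21.7% of all genes. In that fit 2 rose and the median was -0.13.

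The lists for surface epithelium and muscle had medians nearer to that of all genes, although that of muscle was close to the -0.21 of the lens transcription factors. The mean level of the cornea and skin epithelium list was 4.28 to 4.43 in morphants and 4.36 to 4.52 in controls. Of its 13 tested genes (15 listed), 9 had a change below 0, the median was -0.14, and 1 fell and 2 rose. These were cldne, a tight junction gene, at -0.77 (adjusted p = 0.00112), whose other probes went the other way, at 0.41 to 1.09, and the keratins krt18a.1 at 0.61 (adjusted p = 0.0101) and krt8 at 0.50 (adjusted p = 0.0104). The mean level of the skeletal muscle list was 5.89 to 6.05 in morphants and 6.13 to 6.39 in controls. Of its 18 tested genes (20 listed), 15 had a change below 0, the median was -0.20, none rose and 2 fell. These were the myosin heavy chains smyhc1 at -2.39 (adjusted p = 0.00327), whose other probes were at -1.07 and 0.11, and myhz1.2 at -1.09 (adjusted p = 0.0205). Of the genes named from the lists, rgra, smyhc1 and krt18a.1 passed in every alternative tried, and each of the others lost its call in at least 1. With the spike-ins every one of these list medians was above 0 apart from that of the photoreceptor genes, at -0.00, while the median of all genes stood at 0.68.

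**Figure D5:**
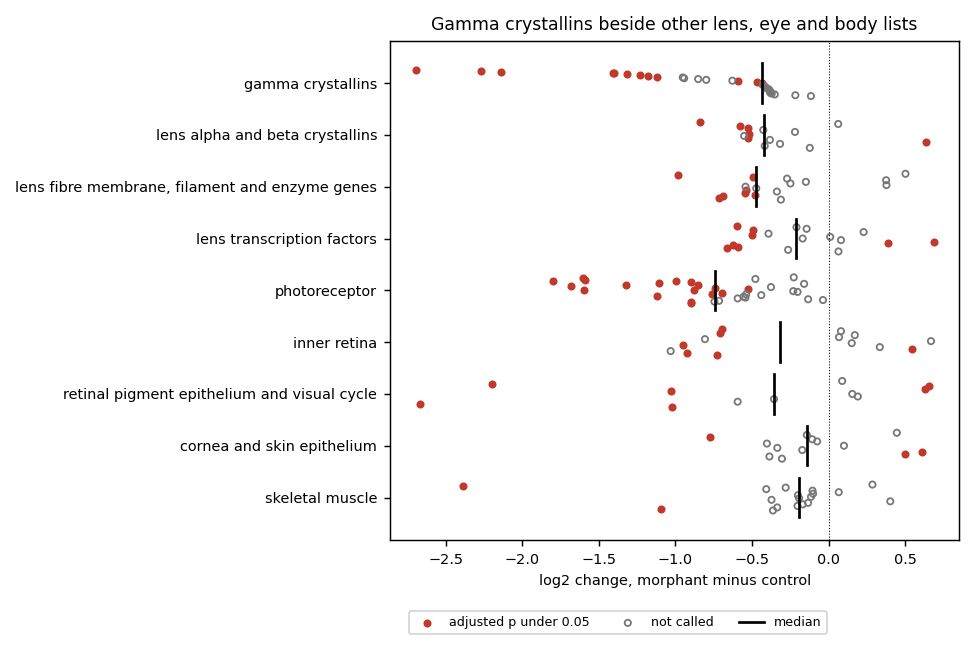
Log2 change, morphant minus control, of each tested gene in the gamma crystallin set and 8 other lists. Filled points have an adjusted p under 0.05, open points do not, and a bar marks the median. The gamma crystallins run from crygm5 at -2.70 to crygs2 at -0.12, with a dense group near -0.4, and the photoreceptor list has the lowest median, -0.74.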

How the data were processed

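The scanner files hold intensity values made by the authors with Feature Extraction 10.7.3.1 on Agilent design 026437, per the file headers. Those headers name a zebrafish design, although mouse arrays stand in the labels' labelling protocol. The deposited value table holds log2 values whose making is not given in the sources used here. Its columns have medians of 8.127 to 8.131 and no centring by gene, and 6 of 8 columns rank probes like the scanner file of another pool of the same group, so it served only as an alternative.

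The processed signal, already background-subtracted, was scaled, on the log2 scale, by the 75th percentile of its array. Control and outlier spots were left out and spots of a probe averaged. Of 43603 probes, 36709 were well above background on all 4 arrays of a group. Probes were named by accession (25069 matched), and the brightest probe stood for its gene. Groups were compared with limma 3.58.1 (lmFit, eBayes) in R 4.3.3, with Benjamini-Hochberg adjustment. The script was tested on simulated data. Replicate number, slide and scan coincide, and deviations of same-numbered arrays correlated at 0.454, 0.159, 0.322 and 0.283, so a block fit was run beside the main one. The gene rule, the lists (every gamma crystallin gene, and of each list at most 2 passing genes per direction) and the alternatives were chosen with earlier results of these data known. The number of arrays limits the precision. A gene that this rule names is not reported here.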

Additional observations from a re-analysis of the deposited data

Results flagged for a closer look

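In 1 of 84 groups of 4 pools examined, a pool stood far from the other 3, where chance flags about 1 in 20 groups. The very bright probe of crygm2a read 7.283 in control pool 2, against 6.969 in the next pool and 6.933 in the lowest. Without that pool the change of crygm2a was -0.51 (adjusted p = 0.0982).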

How the results depend on the processing

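Alternatives changed the number of gamma crystallin genes and probes that fell, given here as genes and then probes beside 14 and 22. In the main fit 21.1% of all probes fell. The counts were 9 and 14 with the array median, with quantile normalization, with normexp and quantile normalization, and with the deposited table. In these fits 18.3%, 18.9%, 17.9% and 18.5% of all probes fell, in that order. They were 8 and 12 with normexp and the 75th percentile, where 4.87% of all probes fell. They were 8 and 13 without scaling (8.64% of all probes) and 4 and 8 with the spike-ins (4.33%). The fit with probes at or below a mean signal of 100000, like that without scaling, was chosen after seeing the data. In it 11 of 20 tested genes fell, against 21.9% of all genes, with a median of -1.15. There 14 of 23 tested probes fell, against 21.2% of all probes. The median was 0.30 with the spike-ins and -0.061 without scaling, against 0.68 and 0.32 over all genes. Over all genes, 13649 passed with the spike-ins and 2733 with normexp and the 75th percentile, against 8963. With a pool left out, 8 to 18 genes and 13 to 23 probes fell, with medians of -0.53 to -0.40 and 6788 to 8913 of all genes passing. In those fits 16.3% to 21.7% of all genes and 15.8% to 21.3% of all probes fell. The spike-ins turned crygm2a to 0.15, crygm2d16 to 0.30, crygm2d18 to 0.32, crygm2d4 to 0.27 and crygmxl2 to 0.30, none of which passed. With the replicate block, 16 genes and 23 probes fell, and crygm3, crygmx, crygn2 and crygm2d18 changed their call. With the mean of the probes of a gene in place of its brightest probe, 15 genes fell, against 22% of all genes. Of these, 14 were gamma M genes and 1 was a gamma N gene, and the median over the members was -0.62. Causes were not tested. Genes near background, crygm7 above all, rest on few arrays with signal.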
